A study of Mus musculus with 1931 samples.

Results

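The glutathione, peroxiredoxin and thioredoxin genes were described across the 3 compartments of Rosette-to-Lumen embryoids (RtL-embryoids) and 3 cultures grown in 2D. Members were taken by a rule on gene symbols that uses no measured value, but the rule was chosen with earlier results of these data known. They comprise the glutathione S-transferases (*Gsta*, *Gstk*, *Gstm*, *Gsto*, *Gstp*, *Gstt*, *Gstz*), the glutathione peroxidases *Gpx1* to *Gpx8*, the peroxiredoxins *Prdx1* to *Prdx6*, all symbols that start with *Txn*, the superoxide dismutases *Sod1* to *Sod3*, and *Nqo1*, *Hmox1*, *Cat*, *Gclc*, *Gclm* and *Gsr*. This gave 63 of the 20999 genes of the table, all of them protein coding in Gencode vM21 (GRCm38).

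Cells keep reactive oxygen species low with enzymes that act in sequence. Superoxide dismutases turn superoxide into hydrogen peroxide, which catalase, peroxiredoxins and glutathione peroxidases reduce. Peroxiredoxins are recharged by thioredoxin and thioredoxin reductase, and glutathione peroxidases by glutathione, which glutathione reductase (*Gsr*) regenerates with NADPH. Glutathione S-transferases attach glutathione to reactive compounds such as lipid aldehydes. The transcription factor Nrf2 (*Nfe2l2*) is known to activate many of these genes. In the early embryo, naïve pluripotent cells, trophoblast and endoderm differ in their metabolism, which makes the system of interest in models of these lineages.

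RtL-embryoids are embryo-like structures assembled from 3 mouse ESC lines in 1 co-culture. Kermit ESCs, which carry an Oct3/4-driven GFP, give the Epi-like (epiblast) cells and hold no inducible factor. In 5-Factor ESCs, doxycycline (DOX) induces *Cdx2*, *Tfap2c*, *Eomes*, *Gata3* and *Ets2* toward ExE-like (extraembryonic ectoderm) cells, and in mCherry-transduced iGATA6 ESCs it induces *Gata6* toward VE-like (visceral endoderm) cells. All 3 lines received DOX at 2 µg/ml for 3 days and spent the last 24 h without it, the Kermit cells included. Structures were picked by hand and pooled, and their cells were sorted by GFP, mCherry and CD40 into 3 plates (plates 3, 4 and 5). The 2D groups were GFP-sorted Kermit ESCs in 2i/LIF without DOX (plate 7), iTSC from 5-Factor ESCs in TSC medium (plate 8) and iXEN cells from iGATA6 ESCs in XEN medium (plate 9), the latter pair with DOX and then without it. The sample labels give a well position but no lineage for the 3D cells. Well columns 1 to 8, 9 to 16 and 17 to 24 are therefore named the Epi, VE and ExE columns, and this assignment was checked with markers.

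Each condition is 1 pool or 1 culture. The 3 plates are technical splits, so that no test between conditions was possible, and differences are given with their values on single plates. Where plates of different blocks are said not to overlap, this describes the gene named only. No share of all genes without overlap is given beside it. Wells with at least 2500 genes above 0 were kept, 1406 of 1931 in all. These were 314 cells of the Epi, 315 of the VE and 353 of the ExE columns, and 142 ESCs, 141 iXEN cells and 141 iTSC. The median number of genes per cell was 4823 to 5396 in the 3D groups and 8537 to 9093.5 in the 2D groups, and within 3D it was highest on plate 3. Between 3D and 2D, the culture, the medium, the plate, the library and the depth differ together and cannot be told apart. Levels are given as TP10k, which is the TPM of a gene after the values of the cell were scaled to a sum of 10000, averaged over all cells of a group with zeros included. As TPM are corrected for transcript length, levels of different genes can be compared.

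The markers followed the well columns. All 6 Epi markers, all 7 VE markers and all 7 ExE markers had their highest 3D mean in the columns of that name, and the Epi list summed to 36.1 TP10k in the Epi columns, 6.38 in the VE columns and 1.85 in the ExE columns. The VE list summed to 22.1 TP10k in the VE columns, 0.0649 in the Epi columns and 2.03 in the ExE columns. The ExE list summed to 5.17 TP10k in the ExE columns, 0.629 in the Epi columns and 0.596 in the VE columns. It holds *Cdx2*, *Eomes* and *Tfap2c*, which are also transgenes of the 5-Factor cells, and their transcripts do not tell their origin. In the ExE columns, 17 of 353 cells (4.82%) showed at least 4 VE markers and more of them than ExE markers, and leaving out all such 3D cells is reported with the limits. A list of 8 parietal endoderm genes, a lineage that shares its origin with visceral endoderm, summed to 124 TP10k in the VE columns and 157 in iXEN cells, against 2.13 to 8.75 in the other groups. All 6 fibroblast markers were under 0.05 TP10k in every group. Of the 6 markers of trophoblast giant cells, 5 were under 0.05 TP10k in the ExE columns and in iTSC, *Hand1* being the exception.

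A member was counted as past 2-fold where the means of the groups compared differed at least 2-fold and, with 3D cells in the comparison, in the same direction on plates 3, 4 and 5. Genes entered a comparison where the average of both group means was at least 0.05 TP10k. The same rule over all genes gives the background, against which the members' counts are read. Of the 63 members, 55 entered at least 1 of the 9 comparisons and 44 were past 2-fold in at least 1. The 8 members that entered none were *Gpx5*, *Gpx6*, *Gsta2*, *Gsto2*, *Gstt4*, *Sod3*, *Txndc2* and *Txndc8*, whose highest group means lay between 0.000448 TP10k (*Gpx5* in ESCs) and 0.0732 TP10k (*Gpx6* in the Epi columns). Another 11 entered and never passed 2-fold, namely *Cat*, *Gsta1*, *Prdx3*, *Prdx5*, *Prdx6*, *Txn1*, *Txn2*, *Txndc9*, *Txnl1*, *Txnl4a* and *Txnrd1*.

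Taken as a sum, the members held 1.92% of the deposited TPM in the Epi columns, 1.16% in the VE columns and 1.75% in the ExE columns. In 2D they held 1.91% in ESCs, 1.49% in iXEN cells and 1.69% in iTSC. On single plates the sum was 176 to 202 TP10k in the Epi columns, 106 to 125 in the VE columns and 156 to 190 in the ExE columns, so that the VE columns lay below the other 3D groups on all plates. Of the *Gst*, *Gpx*, *Prdx*, *Txn* and *Sod* families, only *Txn* summed to more in the VE columns (27.9 TP10k) than in the Epi columns (21.1). The *Gst* family summed to 9.49 TP10k in the VE columns, 16.6 in the ExE columns and 24.4 in the Epi columns, and reached its highest sum, 34.7 TP10k, in iTSC. *Gpx1*, *Gpx4*, *Prdx1*, *Prdx2*, *Prdx6* and *Sod1* were the 6 members with at least 5 TP10k in every group.

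**Figure D1:**
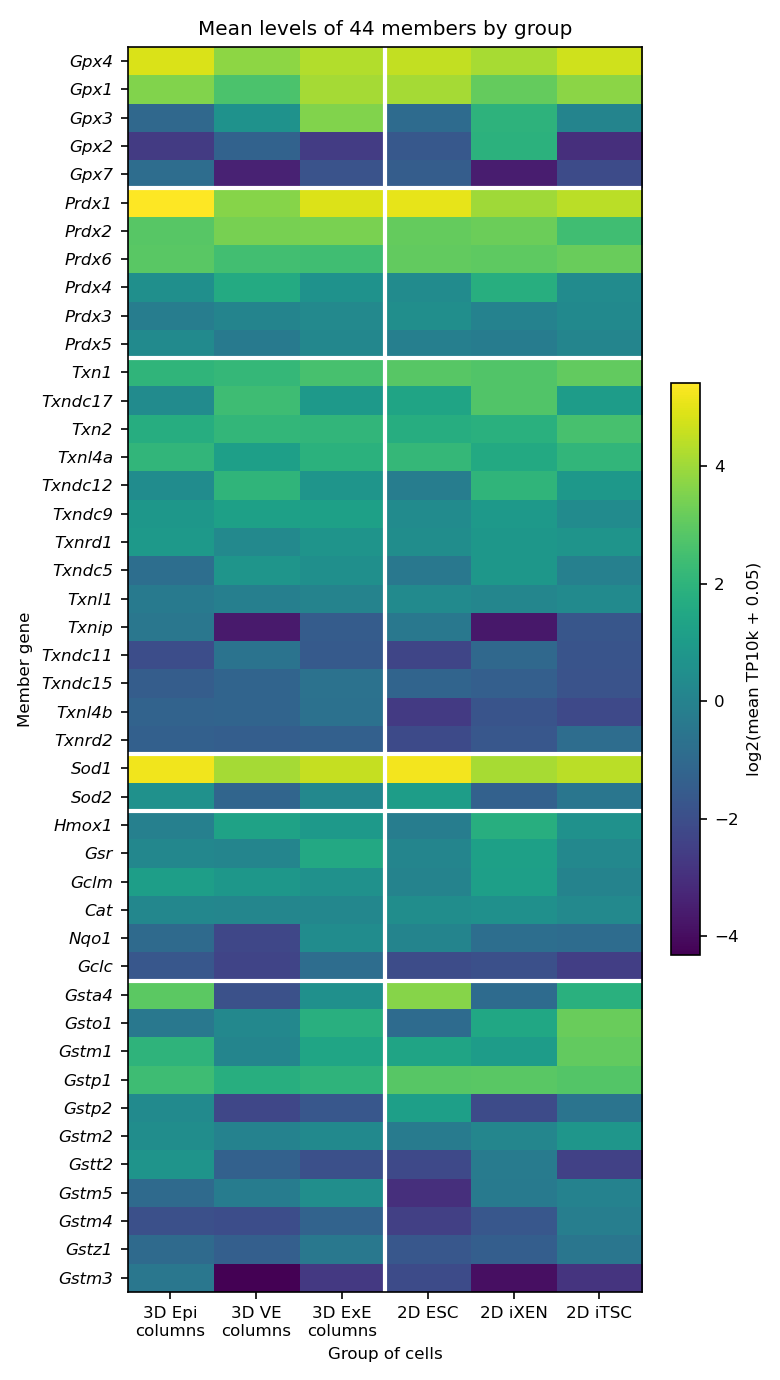
Mean level of the 44 members with at least 0.5 TP10k in a group, as log2(mean TP10k + 0.05), with 1 column per group (3D left, 2D right) and members ordered by family. *Gpx4*, *Prdx1* and *Sod1* are high throughout, *Gpx3* is highest in the ExE columns (11.9 TP10k), and *Gsta4*, *Gstp2*, *Gstm3* and *Txnip* are high in the Epi columns and ESCs and low in the VE columns and iXEN cells.

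Between the ExE and Epi columns, *Gpx3* had the largest fold change of the 51 members that entered. It encodes the secreted (plasma) glutathione peroxidase and lies on chromosome 11 from 54902453 to 54910377 (GRCm38). In the ExE columns it averaged 13, 12.5 and 10.1 TP10k on plates 3, 4 and 5, in the VE columns 1.32, 1.39 and 1.85, and in the Epi columns 0.522, 0.365 and 0.432. The 3D groups did not overlap between plates. This made 11.9 TP10k in the ExE columns, 27.2-fold above the Epi columns (log2 4.76, on plates 4.55 to 5.10). In 2D it stood at 0.476 TP10k in ESCs, 3.85 in iXEN cells and 0.989 in iTSC. *Gpx3* was above 0 in 313 of 353 cells of the ExE columns (88.7%, 95% CI 84.9% to 91.8%) and in 100 of 314 cells of the Epi columns (31.8%, 95% CI 26.7% to 37.3%), by exact Clopper-Pearson intervals that cover counting error only.

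The other glutathione peroxidases followed different orders. *Gpx2*, known from the gut epithelium, averaged 3.79 TP10k in iXEN cells and 0.369 in the VE columns, where its plate means were 0.458, 0.322 and 0.319. The remaining groups had 0.0735 to 0.271 TP10k. Only 6.37% of cells in the Epi columns were above 0 for *Gpx2*, and its low means there and in the ExE columns (0.115 TP10k, on plates 0.0382 to 0.244) rest on 20 and 23 cells. *Gpx1*, the cytosolic enzyme, had 19.8, 17.7 and 13.9 TP10k on the plates of the ExE columns, 14, 12.4 and 9.11 in the Epi columns and 7.61, 6.0 and 4.94 in the VE columns. It was lowest in the VE columns on every plate, and all 3 blocks had their highest value on plate 3, the plate with the most genes per cell. In 2D, *Gpx1* was 16.9 TP10k in ESCs, 13.2 in iTSC and 8.54 in iXEN cells. *Gpx4*, which reduces lipid hydroperoxides and guards against ferroptosis, averaged 28.7 TP10k in the Epi columns, 19.4 in the ExE columns and 13.3 in the VE columns, and 22.6, 26.3 and 17.4 in ESCs, iTSC and iXEN cells. Of its 75-base windows, 29% also occur in transcripts of *Gpx4-ps2*, which Gencode types as a transcribed pseudogene, so its level is less certain. *Gpx7* and *Gpx8*, both located in the endoplasmic reticulum (ER), ran in opposite directions. *Gpx7* averaged 0.502 TP10k in the Epi columns and 0.0458 in the VE columns, where plate 5 was at 0, while *Gpx8* averaged 0.0393 in the Epi columns and 0.481 in the VE columns.

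**Figure D2:**
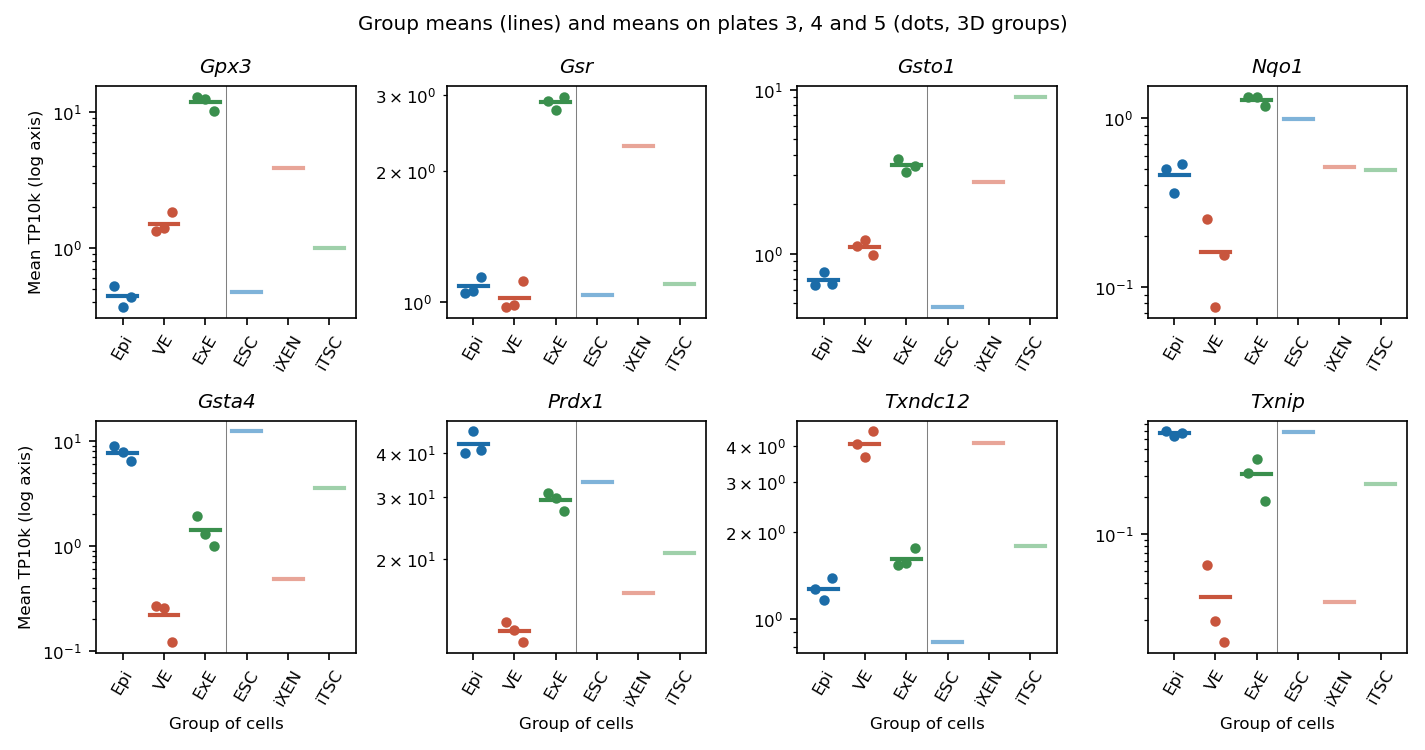
Mean TP10k (log axis) of 8 members, with lines for group means and dots for the means on plates 3, 4 and 5 of the 3D groups, while the 2D groups are 1 culture on 1 plate each. *Gpx3*, *Gsr*, *Gsto1* and *Nqo1* are highest in the ExE columns among the 3D groups, *Gsta4*, *Prdx1* and *Txnip* in the Epi columns and *Txndc12* in the VE columns. The 8 members were picked for display. Their plate means do not overlap with the next group, for which no share over all genes is given.

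Of the genes that make and regenerate glutathione, *Gsr* was past 2-fold higher in the ExE columns than in both other 3D blocks, *Gclc* than in the VE columns only, and *Gclm* in no comparison between 3D blocks. *Gsr* averaged 2.91, 2.77 and 2.98 TP10k on plates 3, 4 and 5 of the ExE columns, against 1.05, 1.06 and 1.14 in the Epi columns and 0.971, 0.985 and 1.11 in the VE columns. The latter pair overlapped, and the ExE columns lay above both, 2.66-fold over the Epi and 2.83-fold over the VE columns. In 2D, *Gsr* was 1.04 TP10k in ESCs, 1.10 in iTSC and 2.29 in iXEN cells. *Gclc*, the catalytic subunit of glutamate-cysteine ligase, which sets the rate of glutathione synthesis, had 0.369, 0.540 and 0.599 TP10k in the ExE columns, 0.229, 0.242 and 0.301 in the Epi columns and 0.114, 0.148 and 0.194 in the VE columns. The blocks did not overlap, but the ExE columns were less than 2-fold above the Epi columns (log2 0.95). In 2D, *Gclc* was 0.124 TP10k in iTSC, 0.193 in ESCs and 0.207 in iXEN cells. Its modifier subunit *Gclm* had another order, with 2.15 TP10k in the Epi columns, 1.71 in the VE columns and 1.47 in the ExE columns. *Gclm* was 0.971 TP10k in ESCs and 0.966 in iTSC, and 2.21 in iXEN cells.

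*Nqo1* and *Hmox1* are commonly used as readouts of Nrf2 activity, and they were not highest in the same group. *Nqo1*, a quinone reductase, averaged 1.34, 1.34 and 1.18 TP10k in the ExE columns, 0.497, 0.360 and 0.534 in the Epi columns and 0.252, 0.0760 and 0.155 in the VE columns. The plates of the 3 blocks did not overlap, and the VE columns were 7.95-fold below the ExE columns (log2 -2.99, on plates -4.14 to -2.42). *Hmox1*, which breaks down heme, averaged 2.39 TP10k in the VE columns, 1.88 in the ExE columns and 0.893 in the Epi columns, and 3.33, 1.46 and 0.817 in iXEN cells, iTSC and ESCs. Catalase (*Cat*) was 1.04 to 1.42 TP10k in all 6 groups.

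In 5 of the 6 groups the member with the highest level was *Prdx1* or *Sod1*, and in iTSC it was *Gpx4*. *Prdx1*, a cytosolic peroxidase, was the highest in the Epi and ExE columns. It averaged 40.0, 46.1 and 40.7 TP10k in the Epi columns, 30.8, 29.8 and 27.4 in the ExE columns and 13.2, 12.6 and 11.6 in the VE columns. The blocks did not overlap, and the VE columns were 3.39-fold below the Epi columns. In 2D the order was the same, with 33.1 TP10k in ESCs, 20.8 in iTSC and 16 in iXEN cells. *Sod1*, the cytosolic copper-zinc enzyme, had 36.9 TP10k in the Epi columns, 23.6 in the ExE columns and 17 in the VE columns, and 37.6, 20.9 and 17.6 in ESCs, iTSC and iXEN cells, and its 3D and 2D levels differed by no more than 1.13-fold within each lineage. *Sod2*, the mitochondrial manganese enzyme, was 1.5, 1.47 and 1.42 TP10k in the Epi columns and 0.395, 0.456 and 0.334 in the VE columns, and 2.10 in ESCs against 0.358 in iXEN cells. *Prdx4*, the peroxiredoxin of the ER, ran the other way with 3.02 TP10k in the VE columns, 3.37 in iXEN cells and 1.24 to 1.5 elsewhere. *Prdx2* (5.24 to 10.8 TP10k) and *Prdx6* (5.32 to 8.92 TP10k), both cytosolic, were abundant in all groups, and *Prdx2* was 2.06-fold higher in the ExE columns than in iTSC. The mitochondrial *Prdx3* was 0.815 to 1.36 TP10k and *Prdx5* 0.734 to 1.21 TP10k.

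The promoters of *Prdx1* and *Sod1*, 2 abundant members that were lower in the VE columns, are shown beside those of *Gclm* and *Txnrd1*, which were not past 2-fold there. They run from 250 bases before to 50 bases after the start site (RefSeq, GRCm38.p6), 5′ to 3′, and the capitals mark the letters TGACNNNGC of the antioxidant response element, which was searched on both strands.
Prdx1 (chr4:116685349-116685648, plus strand): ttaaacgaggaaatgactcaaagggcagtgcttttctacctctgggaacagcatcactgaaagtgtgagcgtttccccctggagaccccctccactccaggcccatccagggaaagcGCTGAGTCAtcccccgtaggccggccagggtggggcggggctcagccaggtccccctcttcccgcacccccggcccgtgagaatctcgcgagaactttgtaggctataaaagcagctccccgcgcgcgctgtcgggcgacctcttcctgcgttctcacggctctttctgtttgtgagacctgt
Sod1 (chr16:90220512-90220811, plus strand): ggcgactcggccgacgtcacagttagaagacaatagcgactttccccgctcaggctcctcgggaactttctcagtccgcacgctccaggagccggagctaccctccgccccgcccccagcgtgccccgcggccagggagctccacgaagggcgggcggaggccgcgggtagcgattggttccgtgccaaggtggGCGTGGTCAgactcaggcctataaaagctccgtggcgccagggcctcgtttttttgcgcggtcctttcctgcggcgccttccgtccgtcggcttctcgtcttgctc
Gclm (chr3:122245307-122245606, plus strand): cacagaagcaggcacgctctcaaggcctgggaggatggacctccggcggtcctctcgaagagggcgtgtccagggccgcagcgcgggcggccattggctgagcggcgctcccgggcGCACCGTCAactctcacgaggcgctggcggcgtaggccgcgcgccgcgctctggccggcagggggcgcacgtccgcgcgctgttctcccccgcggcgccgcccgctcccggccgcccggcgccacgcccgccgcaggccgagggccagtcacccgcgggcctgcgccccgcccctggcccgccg
Txnrd1 (chr10:82858956-82859255, plus strand): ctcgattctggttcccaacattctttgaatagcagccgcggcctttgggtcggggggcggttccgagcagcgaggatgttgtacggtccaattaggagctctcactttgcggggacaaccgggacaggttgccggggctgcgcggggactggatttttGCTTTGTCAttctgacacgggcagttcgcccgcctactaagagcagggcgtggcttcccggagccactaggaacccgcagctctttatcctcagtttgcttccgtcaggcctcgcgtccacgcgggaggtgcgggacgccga
The letters occurred in 10 of the 71 promoters found for 54 members (14.1%) and in 4071 of all 32851 promoters of the table (12.4%), a similar share. They were found in promoters of genes that were lower, higher and not past 2-fold in the VE columns. A match is a description of the sequence only.

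Among the thioredoxin genes, *Txn1*, *Txn2* and *Txnrd1* were past 2-fold in no comparison. *Txn1* was 4.08 to 8.44 TP10k and the mitochondrial *Txn2* 3.28 to 5.84 TP10k over the 6 groups, and the cytosolic reductase *Txnrd1* was 1.14 to 1.85 TP10k. The mitochondrial reductase *Txnrd2* was 0.513 TP10k in iTSC and 0.177 in ESCs (log2 1.53), 0.265 in iXEN cells and 0.329 to 0.348 in the 3D groups, and *Txnrd3*, at most 0.0794 TP10k, was past 2-fold higher in the Epi columns than in ESCs. *Txndc12*, a thioredoxin-fold protein of the ER, averaged 4.08, 3.66 and 4.49 TP10k in the VE columns, against 1.27, 1.16 and 1.39 in the Epi columns and 1.55, 1.56 and 1.76 in the ExE columns. It was 4.10 TP10k in iXEN cells, 1.79 in iTSC and 0.831 in ESCs. *Txndc17*, a cytosolic thioredoxin-like protein, had 5.74, 5.33 and 4.2 TP10k in the VE columns and 1.27, 1.35 and 1.13 in the Epi columns, and 6.69 in iXEN cells. Both genes were higher in the VE columns than in the other 3D blocks on every plate. *Txndc5* and *Txndc11*, further ER proteins, averaged 1.64 and 0.605 TP10k in the VE columns and 0.524 and 0.194 in the Epi columns. *Txndc15* was 0.579 TP10k in the ExE columns, 0.230 in iTSC and 0.318 to 0.385 elsewhere. *Txnip*, which binds thioredoxin and limits glucose uptake, showed the reverse pattern. It averaged 0.695, 0.643 and 0.677 TP10k in the Epi columns, 0.318, 0.416 and 0.188 in the ExE columns and 0.0559, 0.0196 and 0.0131 in the VE columns. In 2D it was 0.687 TP10k in ESCs, 0.258 in iTSC and 0.0278 in iXEN cells. It was above 0 in 11 of 315 cells of the VE columns (3.49%, 95% CI 1.76% to 6.16%), and 19.4% of its exon bases overlap a gene on the other strand, which these unstranded libraries cannot separate. *Txnl4a* and *Txnl4b*, caught by their symbols, belong to the splicing machinery. *Txnl4b* was 0.380 to 0.566 TP10k in 3D and 0.108 to 0.242 in 2D.

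Several glutathione S-transferases differed between lineages. *Gsta4*, which detoxifies the lipid aldehyde 4-hydroxynonenal and lies on chromosome 9 from 78182774 to 78209349 (GRCm38), averaged 8.93, 7.77 and 6.47 TP10k in the Epi columns. In the ExE columns it was 1.91, 1.31 and 1.01 and in the VE columns 0.267, 0.257 and 0.121. No plates overlapped, and the Epi columns were 35.2-fold above the VE columns (log2 of VE over Epi -5.14, on plates -5.74 to -4.92). In 2D the order was the same, with 12.3 TP10k in ESCs, 3.55 in iTSC and 0.482 in iXEN cells. *Gsto1*, an omega-class enzyme, averaged 3.80, 3.16 and 3.41 TP10k in the ExE columns, 1.12, 1.21 and 0.977 in the VE columns and 0.650, 0.775 and 0.659 in the Epi columns. It was highest of all in iTSC (9.06 TP10k), with 2.73 in iXEN cells and 0.472 in ESCs.

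The mu-class genes, which form a cluster on chromosome 3, did not move as a block. *Gstm1* averaged 8.42 TP10k in iTSC, 3.96 in the Epi columns, 2.59 in the ExE columns and 2.5 in ESCs, and was lowest in the VE columns (1.04) and iXEN cells (2.03). *Gstm5* was 1.36 TP10k in the ExE columns and 0.0729 in ESCs. *Gstm4* was 0.841 TP10k in iTSC and 0.128 in ESCs, and *Gstm2* was 1.69 TP10k in iTSC, 0.786 in ESCs and in between elsewhere. *Gstm3* was above 0 in 0 of 315 cells of the VE columns, which allows a share of cells above 0 of up to 0.952% by a limit of 3 counts (exact 95% upper bound 1.16%) and does not limit the share that express it below detection. It was above 0 in 95 of 314 cells of the Epi columns (30.3%, 95% CI 25.2% to 35.7%). Its mean was 0.557, 0.543 and 0.940 TP10k on the plates of the Epi columns. *Gstm3* shares 17.1% of its 75-base windows with pseudogenes and 9.78% with other genes.

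Of the other classes, *Gstp1* averaged 3.41 to 5.2 TP10k in 3D and 7.0 to 7.56 in 2D. *Gstp2* was 1.21 TP10k in the Epi columns and 2.22 in ESCs, and 0.160 in the VE columns. *Gstp2* shares 44.9% of its 75-base windows with *Gstp1*, which shares 29.2% of its own with *Gstp2*, so that reads can be split between them. *Gstt2*, of the theta class, averaged 1.46, 1.96 and 1.30 TP10k in the Epi columns, 0.434, 0.356 and 0.265 in the VE columns and 0.219, 0.246 and 0.167 in the ExE columns, and was 0.775 TP10k in iXEN cells, 0.174 in ESCs and 0.136 in iTSC. *Gstz1*, which acts in tyrosine breakdown, was 0.692 TP10k in the ExE columns, 0.650 in iTSC and 0.261 to 0.461 elsewhere. *Gsta1* shares 84.7% of its windows with other genes and was at most 0.0801 TP10k.

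Set against the Epi columns, the VE columns were past 2-fold higher in 10 of 53 members that entered (18.9%) and lower in 14 (26.4%), beside 15.2% higher and 15.4% lower over all genes. The median log2 difference was -0.33 over these members and -0.07 over all 9807 genes. The 10 higher members were *Gpx2*, *Gpx3*, *Gpx8*, *Gstt3*, *Hmox1*, *Prdx4*, *Txndc5*, *Txndc11*, *Txndc12* and *Txndc17*. Among the 14 lower ones were *Prdx1*, *Sod1*, *Sod2* and *Gpx4* beside *Gsta4*, *Gstm1*, *Gstp2*, *Gstt2* and *Txnip*.

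The ExE columns against the Epi columns were past 2-fold higher in 8 of 51 members (15.7%) and lower in 6 (11.8%), close to the background of 14.3% higher and 8.26% lower. *Gpx3*, *Gpx8*, *Gsto1*, *Gstm5*, *Nqo1*, *Txndc5*, *Gsr* and *Hmox1* were higher, and *Gstt2*, *Gstm3*, *Gsta4*, *Gstp2*, *Txnip* and *Gpx7* were lower. The VE columns against the ExE columns were higher in 6 of 51 members (11.8%) and lower in 16 (31.4%), beside 8.11% higher and 14% lower over all genes. Both comparisons of the VE columns use the same VE cells, and both comparisons with the Epi columns use the same Epi cells.

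**Figure D3:**
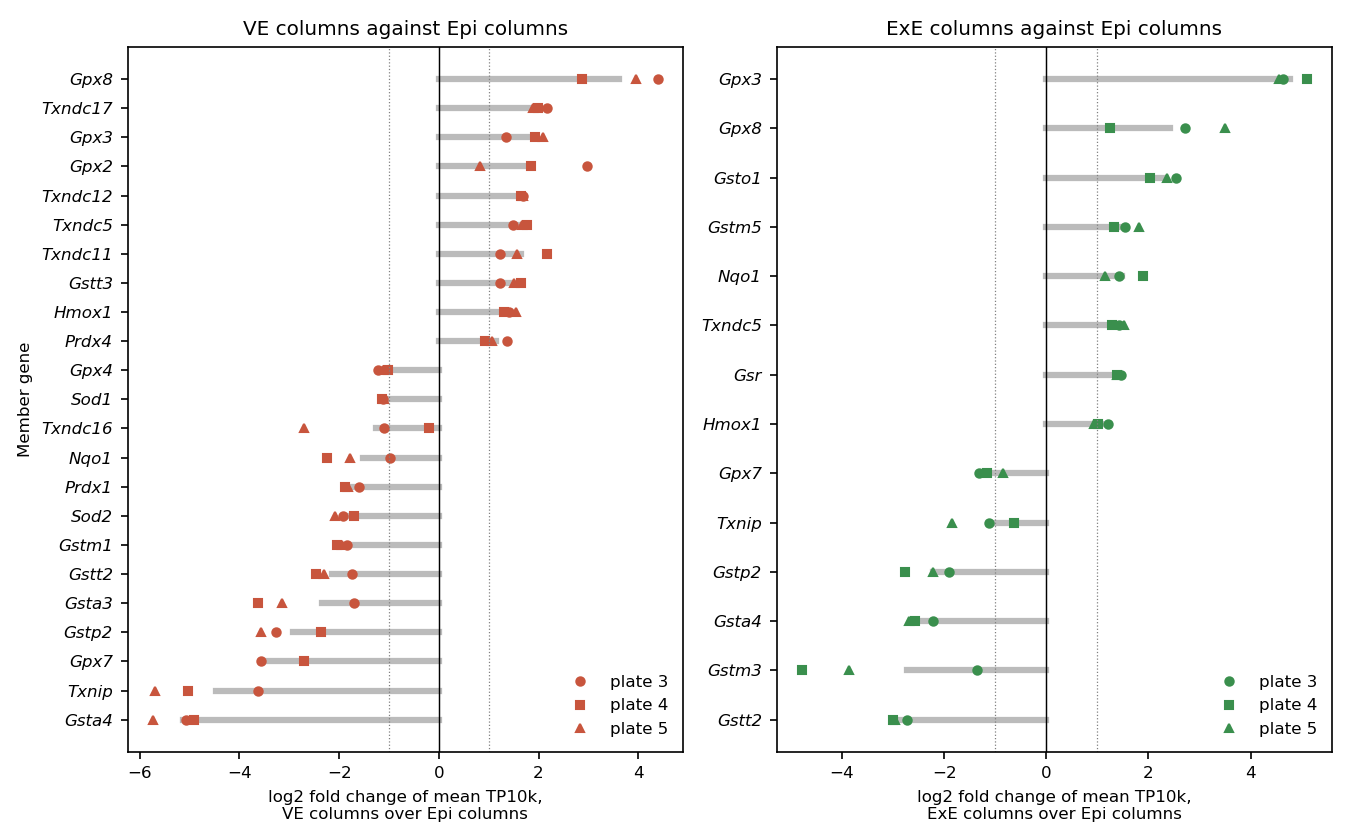
Log2 fold changes of mean TP10k of the members past 2-fold, for the VE columns (left) and the ExE columns (right) over the Epi columns, with bars for all cells, symbols for plates 3, 4 and 5 and dotted lines at 2-fold. *Gsta4* (-5.14) and *Txnip* (-4.47) are lowest in the VE columns and *Gpx3* (4.76) is highest in the ExE columns, while *Gstm3*, with no value above 0 in the VE columns, is left out at the left and the point of *Gpx7* on plate 5 cannot be drawn.

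In 2D, each group is 1 culture of 1 cell line on its own plate. Lineage, cell line, medium and plate differ together and cannot be told apart, and neither can DOX in comparisons with ESCs. By the paper's methods, the ES and TSC media held β-mercaptoethanol, and none is listed for the XEN medium. The part of the medium in these values was not tested. iXEN cells against ESCs were higher in 20 of 53 members (37.7%) and lower in 10 (18.9%), beside 19.5% and 14.6% over all genes. iTSC against ESCs were higher in 14 of 52 members (26.9%) and lower in 7 (13.5%), beside 16.1% and 8.68%. iXEN cells against iTSC were higher in 12 of 52 members (23.1%) and lower in 11 (21.2%), beside 11.6% and 13.9%. The largest of these values was that of *Gpx2*, which was 51.6-fold higher in iXEN cells than in iTSC (log2 5.69).

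The lineage contrasts of 3D and 2D share no cells and can be set side by side. Each lineage comes from the same ESC line in both, however, so a difference between the lines would recur in 3D and 2D. Lineage and cell line cannot be told apart in either setting. Of the 24 members past 2-fold between the VE and Epi columns that entered in 2D too, 19 (79.2%) were past 2-fold in the same direction between iXEN cells and ESCs, which is 65.5% of the 29 members past 2-fold in 2D. Over all genes these shares were 65.5% and 59.5%. *Gstt2* was the only member past 2-fold in opposite directions (4.17% of the 24, all genes 2.01%), with log2 -2.15 in 3D and 2.15 in 2D. For the ExE and Epi columns set beside iTSC and ESCs, 8 of 14 members went the same way (57.1%, all genes 50.8%). The opposite way went 0 members (all genes 3.87%). For the VE and ExE columns set beside iXEN cells and iTSC, 13 of 22 went the same way (59.1%, all genes 57.5%). Here *Gpx3* and *Gsr* were opposite (9.09% of the 22, all genes 3.00%), with log2 -2.98 and -1.50 in 3D and 1.96 and 1.06 in 2D.

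**Figure D4:**
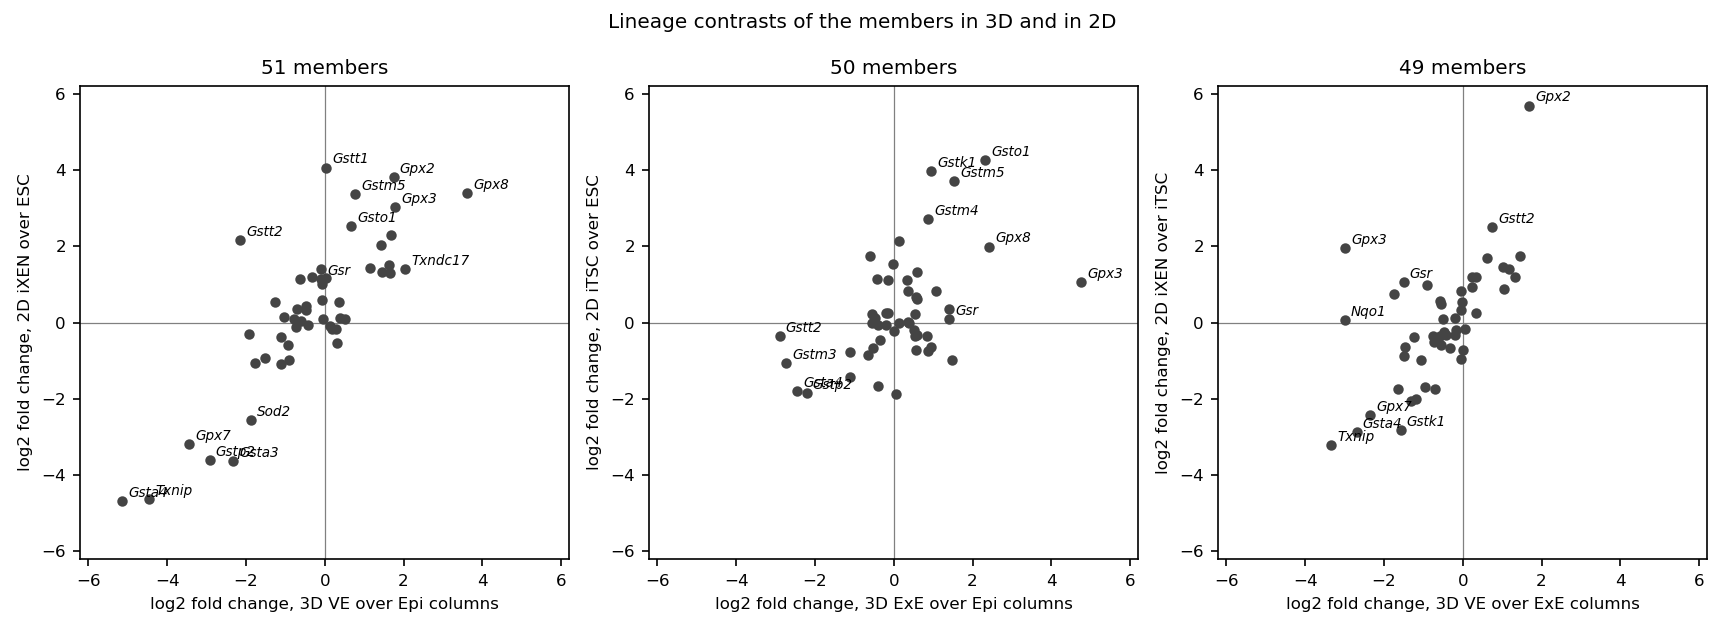
Log2 fold changes of mean TP10k between lineages in 3D (x axis) and in 2D (y axis), with 1 point per member that entered both comparisons, for the VE lineage over the Epi lineage (left), the ExE lineage over the Epi lineage (middle) and the VE lineage over the ExE lineage (right). *Gsta4* and *Txnip* lie low on both axes at the left, *Gstt2* lies at -2.15 in 3D and 2.15 in 2D, and *Gpx3* at the right lies at -2.98 in 3D and 1.96 in 2D, and *Gstm3*, which is at 0 in the VE columns, is not drawn at the left and right.

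Each lineage was also compared between 3D and 2D. The Epi columns against ESCs were higher in 8 of 52 members (15.4%) and lower in 4 (7.69%), beside 9.98% and 6.41% over all genes. *Gstt2* (log2 3.18), *Gstm5* (2.69) and *Gstm3* (1.89) were among the higher ones, and *Gpx2*, *Gsta3*, *Nqo1* and *Txndc17* were lower. As a difference of mean log2(TPM + 0.1), in which cells at 0 weigh more, *Gstm3* turned to -0.31, *Txnl4b* to -0.51 and *Gclm* to -0.83, while the median gene stood at -2.13. The VE columns against iXEN cells were higher in 0 of 48 members and lower in 9 (18.8%), beside 3.41% higher and 5.67% lower. These 9 were *Gpx2*, *Gpx3*, *Gsr*, *Gsta4*, *Gsto1*, *Gstp1*, *Gstt1*, *Gstt2* and *Nqo1*. Without plate 5 there were 6, while over all genes 333 were higher and 542 lower, instead of 323 and 537. The ExE columns against iTSC were higher in 8 of 52 members and lower in 8 (15.4% each), beside 10.4% and 8.08%. *Gpx3* (log2 3.59, on plates 3.36 to 3.71), *Gclc* (2.01), *Gsr* (1.39) and *Nqo1* (1.38) were higher, and the 8 lower ones were all transferases, namely *Gsta4*, *Gstk1*, *Gstm1*, *Gstm4*, *Gstm7*, *Gsto1*, *Gstp2* and *Gstp3*. *Nqo1* and *Txndc15*, also higher here, turned to -0.35 and -0.11 as differences of mean log2(TPM + 0.1). With TPM not rescaled per cell, this split was 11 higher to 5 lower among the members, and 72.1% instead of 56.3% of all genes past 2-fold were higher. Centred on the median gene, the share of higher genes among all genes past 2-fold in the Epi columns against ESCs was 50.4% instead of 60.9%, with the same split of 8 to 4 among the members. In iXEN cells against iTSC, TPM not rescaled gave 15 higher to 10 lower members, and 55.6% instead of 45.5% of all genes past 2-fold.

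Around the members, 5 lists of genes of the same pathways were described by the same rule. Over all genes, 15.2% were higher and 15.4% lower in the VE against the Epi columns and 14.3% higher and 8.26% lower in the ExE against the Epi columns, so that 1 or 2 genes in a list of this length are not set apart from the background. Of 12 genes of glutathione synthesis and supply, 10 entered in the VE against the Epi columns, and 2 of them were higher and 4 lower. *Cth*, which makes cysteine from cystathionine, was 0.102 TP10k in the VE columns and 2.24 in the Epi columns (log2 -4.45, on plates -4.70 to -4.26), and *Cbs*, which catalyses the preceding step, was 0.0639 and 0.351. *Ggt1*, which splits extracellular glutathione, was 0.482 TP10k in the VE columns and 0.00495 in the Epi columns. In the ExE columns, glutathione synthetase (*Gss*) was 1.15 TP10k against 0.378 in the Epi columns (log2 1.60, on plates 1.44 to 1.78), the only higher one of the 9 genes of the list that entered there, and *Cth* was the only lower one. Of the 10 genes of NADPH supply, all of which entered, 2 were higher and 1 was lower in the VE against the Epi columns, and 2 were higher and 0 lower in the ExE against the Epi columns. Among these, *Pgd* of the pentose phosphate pathway was 2.78 TP10k in the ExE and 1.16 in the Epi columns, and malic enzyme *Me1* was 0.801 TP10k in the VE columns, 0.380 in the ExE columns and 0.186 in the Epi columns.

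Of the 18 Nrf2 regulators and targets that are no members, 15 entered in the 3D comparisons. *Nfe2l2* itself was 0.522 TP10k in the VE and 1.36 in the ExE columns (log2 -1.39, on plates -1.52 to -1.25). In the VE against the Epi columns, 2 of them were higher, led by *Mafk*, and *Cbr3* and *Ephx1* were lower, and in the ExE against the Epi columns *Mafk* was higher and *Ephx1* and *Cbr3* were lower. Of 14 glutaredoxins, microsomal transferases and methionine sulfoxide reductases, 10 entered in the VE against the Epi columns, and 3 of them were higher and 1 was lower. *Mgst3*, a microsomal glutathione transferase, was 6.77 TP10k in the VE columns and 0.915 in the Epi columns, and *Glrx5*, a mitochondrial glutaredoxin, was 2.05 TP10k in the ExE columns and 0.557 in the Epi columns. Of 10 genes of selenium handling and selenoprotein synthesis, on which most *Gpx* and *Txnrd* proteins depend, all entered, and 1 was higher and 1 lower in the VE against the Epi columns and 1 higher in the ExE against the Epi columns. *Selenop* was 0.760 TP10k in the ExE columns, 0.181 in the VE columns and 0.176 in the Epi columns. *Selenow* was 13.1 TP10k in the VE, 6.29 in the ExE and 3.94 in the Epi columns.

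The members were spread unevenly over the cells of a group. *Gpx3* in the ExE columns had a median of 3.29 TP10k per cell, a 90th percentile of 35.5 and a highest cell of 146, and the highest 10% of cells held 59.8% of its sum. In the Epi columns the 90th percentile was 1.72 TP10k. *Gsta4* was more even in ESCs, with a coefficient of variation of 0.228 over cells, against 0.532 in the Epi columns and 1.30 in the ExE columns. *Gpx2* in iXEN cells had quartiles of 0.657 and 5.03 TP10k around a median of 2.38, and *Gsto1* in iTSC 4.76 and 12.1 around 7.78.

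**Figure D5:**
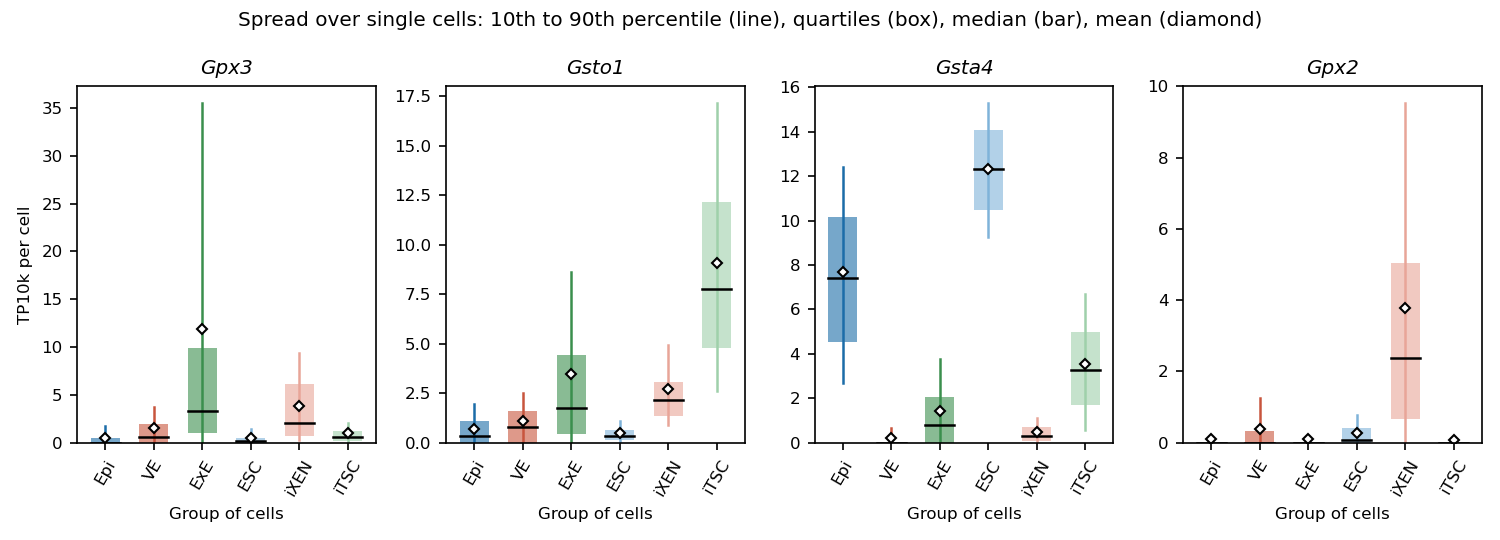
TP10k per cell of *Gpx3*, *Gsto1*, *Gsta4* and *Gpx2* in the 6 groups, with boxes for the quartiles, lines for the 10th to 90th percentile, bars for the median and diamonds for the mean. In the ExE columns the mean of *Gpx3* (11.9) lies above its 75th percentile (9.92), while in ESCs the median and the mean of *Gsta4* are both 12.3.

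Cells of the ExE columns were also split by the trophoblast stem genes *Elf5* and *Eomes*, either of which was above 0 in 220 of 353 cells (62.3%). *Gpx3* averaged 18.7 TP10k in the 133 cells with neither gene (21.8, 17.6 and 17.1 on plates 3, 4 and 5) and 7.79 in the 220 cells with at least 1 (8.48, 9.23 and 5.46). *Gsto1* went the other way, with 2.09 TP10k in cells with neither (3.10, 1.95 and 1.33) and 4.29 in the others (4.15, 3.95 and 4.81). These were the only members of the 35 with at least 0.5 TP10k in the ExE columns that differed 2-fold and in 1 direction on all plates. No share over all genes is given for this split, so both genes are not set apart from the background. Cells with neither gene had fewer genes above 0 (median 4835 against 5784.5), and 8 of them, beside 9 of the others, showed 4 VE markers. The part of depth and of such cells in these differences was not tested. As *Eomes* is also a transgene of these cells, its transcripts do not tell its origin.

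Correlations between members across single cells are given as a description, since the cells of a group share a library plate and depth. Over all pairs of members that were above 0 in at least 50% of a group's cells, the median Spearman correlation was 0.00896 to 0.0439. As up to 50% of cells can be at 0 for a member, a low value does not show that a pair did not vary together. No pairs of other genes are given beside them. In iXEN cells 21 of 946 pairs were over 0.3 and 16 under -0.3. Over 0.3 were 19 of 903 pairs in iTSC and 8 of 630 in the ExE columns. The pairs named next are the strongest of their groups. In iXEN cells, *Prdx6* varied with *Gpx2* (0.52, n = 141 cells) and against *Gpx3* (-0.48), *Gstm1* (-0.48) and *Gstt2* (-0.45). Their correlations with the number of genes per cell lay between -0.14 and 0.08. In iTSC, *Prdx6* varied with *Gsto1* (0.50, n = 141), and in the ExE columns *Sod1* varied with *Prdx2* (0.45, n = 353) and *Gpx1* (0.45).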

How the data were processed

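SMART-seq2 libraries of single cells from 1 pool of RtL-embryoids and 3 2D cultures were analysed. Per the labels and methods, the authors processed reads with bcl2fastq 2.20, pseudoaligned them (kallisto, GRCm38, Gencode vM16), collapsed them to genes (tximport), filtered mitochondrial, ribosomal and pseudogenes, and deposited TPM. TPM keep no read number, so no count test or interval of a level was possible, and the number of genes above 0 stood in for depth. No strand is kept, and reads shared between near-identical genes are split by the pseudoaligner. Of the wells, 39 held no values. A minimum of 2500 genes above 0 was set per cell, and cells were scaled to a sum of 10000 (TP10k).

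Group means, shares with exact 95% intervals and fold changes were computed in Python 3.11.15 (numpy 2.4.6, pandas 2.3.3, scipy 1.17.1, matplotlib 3.10.9). The call rule was run on values of the Epi columns shuffled between cells within each plate, with known fold changes put in. That run does not cover groups that differ in depth, plate or cell type. Described singly were members past 2-fold in a comparison with at least 0.5 TP10k in a group and members with at least 5 TP10k in every group, and of the pathway lists, at most 3 genes past 2-fold per comparison, while *Gpx8*, *Gstk1* and members given by their range were added after their values were seen. The members and lists were chosen with earlier results of these data known. Windows of 75 bases shared between transcripts and overlapping exons were counted in Gencode vM21. Alternatives were minima of 4000 genes, cells with 5000 to 9000 genes, TPM not rescaled, centring, log2 scales with pseudocounts of 1 and 0.1, no filter on low values, 1.5-fold, leaving out the highest 1% of cells, each plate or cells not led by their own markers, and, added after the data were seen, cells rich in markers of another block.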

Additional observations from a re-analysis of the deposited data

Results flagged for a closer look

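In 5 members, a contrast went past 2-fold one way in 1 setting and the other way in another, and these differences were not tested, as each condition is 1 sample. No share over all genes is given for this flag, so the 5 members are not set apart from the background. *Gpx3* was higher in the ExE columns than in iTSC (log2 3.59) and lower in the VE columns than in iXEN cells (-1.35). In the same way it was lower in the VE than in the ExE columns (-2.98) and higher in iXEN cells than in iTSC (1.96). *Gsr* showed the same pattern, with log2 1.39 for the ExE columns over iTSC, -1.16 for the VE columns over iXEN cells, -1.50 for the VE over the ExE columns and 1.06 for iXEN cells over iTSC. *Nqo1* was lower in 3D than in 2D in the Epi (-1.09) and VE lineages (-1.67) and higher in the ExE lineage (1.38).

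*Gstt2* was higher in the Epi columns than in ESCs (log2 3.18) and lower in the VE columns than in iXEN cells (-1.13). It was thus lower in the VE than in the Epi columns (-2.15) and higher in iXEN cells than in ESCs (2.15). *Gstk1*, a low-abundance transferase of at most 0.489 TP10k, was higher in the Epi columns than in ESCs (2.00) and lower in the ExE columns than in iTSC (-1.03). The contrasts of each gene share groups of cells with each other, and the 3D and 2D cells differ in culture, plate and number of genes per cell, which cannot be told apart.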

How the results depend on the processing

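Of 1587 fold changes of the members described singly, recomputed under the alternatives, 1515 stayed past 2-fold in the same direction and 6 changed sign. The 1.5-fold and no-filter alternatives are among them. They leave a fold change as it is, so a member past 2-fold could not fail there. The scale mattered most between 3D and 2D. With mean log2(TPM + 1), 23 members (instead of 12) were past 2-fold in the Epi columns against ESCs and 23 (instead of 9) in the VE columns against iXEN cells. With mean log2(TPM + 0.1) these were 36 and 33, beside 29 (instead of 16) for the ExE columns against iTSC and 27 (instead of 14) for the ExE against the Epi columns. The median of all genes moved with them, to -1.03 and -2.13 in the Epi columns against ESCs, -0.82 and -1.64 in the VE columns against iXEN cells and -0.58 and -1.27 in the ExE columns against iTSC, and the 3D cells had fewer genes above 0. Of all genes past 2-fold in the Epi columns against ESCs, 1.93% and 1.43% were higher on these scales, instead of 60.9%. For the VE columns against iXEN cells these shares were 1.45% and 0.995%, instead of 37.6%. For the ExE columns against iTSC they were 7.61% and 4.04%, instead of 56.3%. The changes of sign were *Gclm* (-0.15 and -0.83), *Gstm3* (-0.31) and *Txnl4b* (-0.51) in the Epi columns against ESCs, and *Nqo1* (-0.35) and *Txndc15* (-0.11) in the ExE columns against iTSC. The part of depth in them was not tested. At 1.5-fold there were 22 members for the ExE against the Epi columns, 27 for the Epi columns against ESCs, 14 for the VE columns against iXEN cells, 26 for the ExE columns against iTSC, 32 (instead of 21) for iTSC against ESCs and 35 (instead of 23) for iXEN cells against iTSC. The counts over all genes rose in every comparison too. In the Epi columns against ESCs they were 2089 higher and 1278 lower, instead of 967 and 621. In cells with 5000 to 9000 genes, 10 members (instead of 16) were past 2-fold between the ExE columns and iTSC. Over all genes, 869 were higher and 745 lower there, instead of 1049 and 813, so the members fell by a larger share. Leaving out 1 plate gave 24 to 26 members for the VE against the Epi columns, 14 to 18 for the ExE against the Epi columns, 19 to 22 for the VE against the ExE columns, 13 to 15 for the Epi columns against ESCs, 14 to 19 for the ExE columns against iTSC and 6 to 10 for the VE columns against iXEN cells, the 6 being without plate 5. Over all genes, the VE against the Epi columns then gave 1510 to 1587 higher and 1556 to 1579 lower, instead of 1487 and 1507. The ExE columns against iTSC gave 1025 to 1143 higher and 779 to 928 lower, instead of 1049 and 813. The VE columns against iXEN cells gave 333 to 386 higher and 542 to 636 lower, instead of 323 and 537. Without plate 5 they gave 333 and 542, so all genes showed no drop beside that of the members. Leaving out 3D cells rich in markers of another block, an alternative chosen after seeing the data, gave 24, 16 and 22 members in the 3D comparisons. Over all genes, 1497, 1441 and 856 were then higher, instead of 1487, 1445 and 800. Lower were 1520, 856 and 1458, instead of 1507, 834 and 1385. No paired analysis was possible because no test was made.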
